A study of Arabidopsis thaliana with 18 samples.

Results

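The difference between root and shoot in the transcriptional response to phosphate (Pi) starvation was examined in 12 of the 18 arrays of the series, namely all arrays of both tissues without Pi and at the control Pi supply. The material was wild-type Arabidopsis thaliana of the Columbia background, grown hydroponically on Murashige and Skoog medium with sucrose and moved for 7 days to medium with 0 mM Pi (P0), in which potassium sulphate took the place of the phosphate salt, or with 1.25 mM Pi (P1.25). Whole roots and whole shoots were hybridised separately to the Affymetrix AraGene 1.0 ST array, giving root P0, root P1.25, shoot P0 and shoot P1.25 with 3 arrays each, and the study's methods give 3 independent biological experiments. The 6 remaining arrays, root and shoot at 20 mM Pi (P20), did not enter the comparison. Values are the deposited log2 expression values. The quantity followed here is the change in root (root P0 minus root P1.25) minus the change in shoot (shoot P0 minus shoot P1.25), called the tissue difference. It is above 0 where starvation raised a transcript more, or lowered it less, in root than in shoot, and below 0 in the opposite case.

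Plants that run short of Pi raise high-affinity Pi transporters, secrete acid phosphatases and ribonucleases, and replace phospholipids of their membranes by galactolipids and sulpholipids. The transcription factor PHR1, which the SPX proteins hold inactive when Pi is plentiful, drives most of these genes in both organs. Roots are the organ of uptake, whereas leaves hold most of the photosynthetic membranes and are known to accumulate starch and anthocyanin when Pi is scarce.

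Among 38408 transcripts, the tissue difference was called for 7461 (19.4%) by limma with Benjamini-Hochberg adjustment at an adjusted p under 0.1. It was above 0 for 3648 transcripts (9.5%) and below 0 for 3813 (9.93%). Of the 38408 transcripts, 7132 had values identical to those of another. Counted once, 32879 transcripts remained, and these calls were 3411 above 0 and 3534 below 0. Transcript counts below include such copies unless stated. The size exceeded 1 on the log2 scale for 4035 of the called transcripts and 2 for 838, and the median size among the called ones was 1.05. The median over all transcripts was 0.00 for the tissue difference, -0.09 for the change in root and -0.10 for the change in shoot. Of the called transcripts, 61.7% changed more in shoot than in root in absolute size, against 55.4% of all transcripts.

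The direction of the tissue difference arose in several ways. Where it was above 0, the most frequent pattern was a fall in shoot with no call in root (1899 transcripts, 52.1%; median change -1.08 in shoot), followed by a rise in root with no call in shoot (733 transcripts; median change 0.98 in root). A further 397 rose in both tissues and more in root, 282 fell in both and more in shoot, 254 rose in root and fell in shoot, and 83 passed the test in neither tissue alone. Where it was below 0, 1562 transcripts (41.0%) rose in shoot with no call in root (median change 0.93 in shoot) and 1107 (29.0%) fell in root with no call in shoot (median change -0.86 in root). Another 525 fell in root and rose in shoot, 397 rose in both and more in shoot, 111 fell in both and more in root, and 111 passed in neither. For comparison, 11.4% of all transcripts were called higher and 18.7% lower at P0 in root, and 16.8% higher and 22.5% lower at P0 in shoot. The 3 arrays at P0 did not overlap with the 3 at P1.25 for 41.0% of transcripts in root and 45.2% in shoot.

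**Figure D1:**
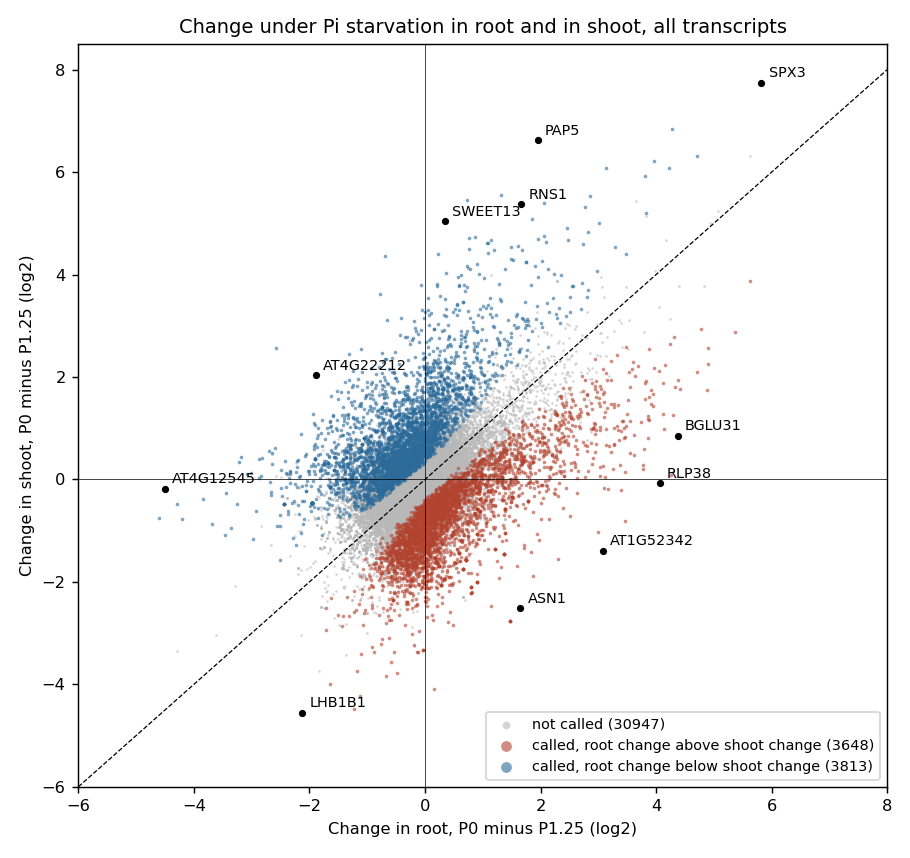
Change at P0 relative to P1.25 (log2) in root (horizontal axis) and in shoot (vertical axis) for each of the 38408 transcripts; red and blue points are the 3648 and 3813 transcripts with a called tissue difference above and below 0, and the dashed line marks equal change. SPX3 lies far up in both tissues, SWEET13 on the shoot axis, RLP38 on the root axis, and AT1G52342 and AT4G22212 in the quadrants of opposite change.

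The third arrays at P1.25 stood apart from the other arrays of their groups, and held 43.9% of the squared deviation within the root P1.25 group and 44.7% within shoot P1.25, against at most 36.2% for any array of the P0 groups. Marker genes moved with them. The summed intensity of 11 measured shoot markers was 8929 in the third shoot P1.25 array, against 14986 and 15755 in its 2 companions, and that of 10 measured root markers was 411, against 266 and 308. In the third root P1.25 array the shoot markers summed to 1136, against 775 and 926, and the root markers to 2267, against 2965 and 2659. The third P20 arrays stood apart in the same way, with shoot markers at 7476 in shoot, against 12701 and 12307, and at 1083 in root, against 679 and 532. Genes outside the markers moved as well, some of them in the same direction in both tissues. The defence gene WRKY38 had 6.66 in the third root P1.25 array, against 4.98 and 5.35, and 6.13 in shoot, against 5.3 and 5.74. The iron storage gene FER1 had 8.64 in root, against 7.9 and 7.75, and 10.85 in shoot, against 9.96 and 9.95. At P20 the third array was the highest for FER1 in root only. The part of tissue separation, or of any other difference of these arrays, in the results was not tested. For the gene lists described in the text, counts without the third P1.25 arrays of both tissues are given beside the main ones where they moved by more than 1.5 times. Without these 2 arrays, 5269 transcripts were called above 0 and 5769 below 0.

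Genes are named through the platform annotation, and 1116 further genes through gene names in the study's supplementary tables, which hold genes that changed with Pi supply on these same arrays. The tissue difference was called above 0 for 9.78% and below 0 for 10.6% of the 16547 genes named by the platform, but for 24.7% and 25.5% of those named by the study. Over all 17663 named genes the shares were 10.7% and 11.6%. Within root 15.0% of named genes were called higher and 16.7% lower at P0, and within shoot 20.9% were called higher and 19.7% lower. List members named by the study are therefore not independent evidence of a response. Of the 257 listed genes that were measured, the platform named 91 and the study 166. The number named by the platform is stated below for some of the lists only.

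Genes of Pi acquisition and recycling mostly rose in both tissues, and many rose more in shoot. In none of the 4 lists of such genes did a member have a called tissue difference above 0, whereas 2 of 4 Pi transport genes, 4 of 13 Pi sensing genes, 6 of 9 acid phosphatases and RNases, and 9 of 16 lipid remodelling genes were called below 0. The median tissue difference was -1.08, -0.46, -2.77 and -1.08 in these lists. The changes themselves were called higher in root for 3, 10, 9 and 14 genes of these lists and in shoot for 4, 11, 9 and 14. The platform named 1 transport gene, 4 sensing genes, 1 lipid gene and no phosphatase or RNase, none of which was called, and the study named the others. Without the third P1.25 arrays, 7 of 13 sensing genes were called below 0, and 1 gene each of the sensing, lipid, and phosphatase and RNase lists was called above 0.

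SPX3 (AT2G45130), a repressor of the starvation response that is itself strongly induced by starvation, had values of 8.89, 9.09 and 8.80 in root P0 and 2.98, 2.82 and 3.52 in root P1.25. In shoot it had 10.91, 11.02 and 10.96 at P0 and 3.22, 3.33 and 3.11 at P1.25. The control levels of the tissues thus overlapped, while every starved shoot exceeded every starved root. The rise was 5.82 in root and 7.74 in shoot, and the tissue difference was -1.92 ± 0.24 (SE; limma adjusted p = 0.000806). IPS1, a non-coding RNA that sequesters miR399, rose by 4.71 in root and 6.31 in shoot, with a tissue difference of -1.6 (adjusted p = 0.000338). The transcription factor gene MYB62 and the SPX-domain gene SPX2 differed by -1.06 (adjusted p = 0.0265) and -0.86 (adjusted p = 0.00639). SPX1 rose in both tissues, by 3.10 in root, and its tissue difference of -0.46 was not called (adjusted p = 0.519).

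Among the transport genes, PHT1;7, a plasma membrane Pi transporter, had 6.19, 6.44 and 5.28 in root P0 against 3.76, 4.41 and 4.22 in root P1.25, and 9.23, 9.42 and 9.56 in shoot P0 against 3.72, 4.71 and 4.51 in shoot P1.25. Its starved shoot level stood well clear of the starved root level, and the tissue difference was -3.25 ± 0.47 (adjusted p = 0.00175). PHT1 family members are close in sequence, so part of this signal may be shared between them on a hybridisation array. PHF1, which moves PHT1 proteins out of the endoplasmic reticulum, rose by 0.83 in root against 2.3 in shoot (difference -1.47; adjusted p = 0.000148).

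The acid phosphatase and RNase list held the largest differences of the 4. RNS1 (AT2G02990), a secreted S-like ribonuclease, had 5.81, 5.87 and 5.65 in root P0 against 4.24, 3.97 and 4.13 in root P1.25, and 9.87, 9.79 and 10.03 in shoot P0 against 4.43, 4.49 and 4.68 in shoot P1.25. The rise of 1.66 in root was exceeded by the rise of 5.37 in shoot (tissue difference -3.71 ± 0.17; adjusted p = 1.82e-05). PAP24, a purple acid phosphatase, had 4.3, 4.23 and 3.72 in root P0 against 3.22, 2.80 and 2.26 in root P1.25, and 8.02, 8.21 and 8.24 in shoot P0 against 2.99, 2.41 and 2.44 in shoot P1.25. Control levels again overlapped between the tissues, and the difference was -4.22 ± 0.36 (adjusted p = 0.000116). PAP14, PAP22 and PAP23 followed with -3.53, -2.82 and -2.77. PAP5, outside the list, had the third lowest value among named genes at -4.67 (adjusted p = 0.000388). PAP17 rose by 4.04 in root and 3.37 in shoot, and its difference of 0.67 was not called (adjusted p = 0.176).

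Within lipid remodelling, 14 of 16 genes were called higher at P0 in root and 14 in shoot. AT1G17710 (PEPC1), annotated as a phosphatase, rose by 4.27 in root and 6.83 in shoot, and NPC4, a phospholipase C that cleaves the head group from membrane phospholipids, rose by 2.77 and 5.32 in the same order of tissues. Their tissue differences were -2.56 (adjusted p = 0.000213) and -2.55 (adjusted p = 0.000116). The galactolipid synthase gene MGD2 differed by -1.63, the lipin-like phosphatidate phosphatase gene PAH1 by -1.66 and SRG3, a glycerophosphodiester phosphodiesterase gene, by -1.22. DGD1, SQD1, UGP3 and PS2 rose in both tissues with differences between -0.69 and -0.26, none of which was called. AT1G73600 fell in both tissues, by 4.29 in root and 3.35 in shoot, also without a called difference.

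**Figure D2:**
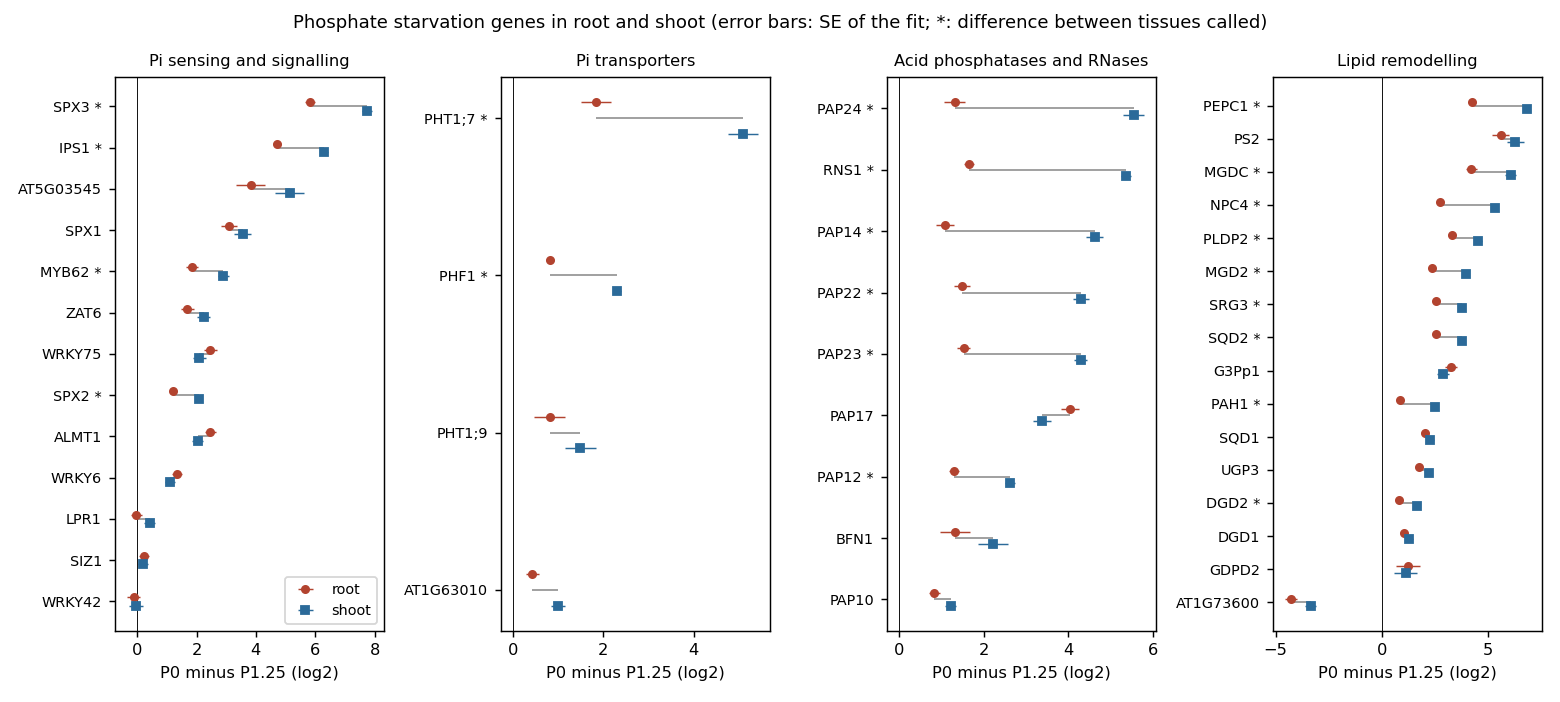
Change at P0 relative to P1.25 (log2; horizontal axis) in root (red circles) and in shoot (blue squares) for the measured members of the 4 Pi starvation lists; bars are SE of the fit, and an asterisk marks a called tissue difference. The shoot change exceeded the root change for every gene with an asterisk. Several genes without one, among them PAP17, WRKY75, WRKY6, ALMT1 and G3Pp1, had the larger mean change in root.

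Enzymes of flavonoid and anthocyanin synthesis rose in shoot and mostly not in root. All 13 measured genes were called higher in shoot at P0 and 4 were called higher in root. The tissue difference was called below 0 for 11 of them, 7 of 8 among genes named by the platform, and the list median was -2.90. TT7 (AT5G07990), the flavonoid 3'-hydroxylase, had 5.84, 5.96 and 5.84 in root P0 against 5.82, 5.68 and 5.51 in root P1.25, and 9.34, 9.38 and 9.32 in shoot P0 against 5.33, 5.66 and 5.75 in shoot P1.25. The 3 starved shoots alone were high. Its change was 0.21 in root (adjusted p = 0.283) and 3.77 in shoot, and the tissue difference was -3.55 ± 0.18 (adjusted p = 1.83e-05). Chalcone synthase TT4, the first committed enzyme, had a mean of 9.30 in root P0 against 8.90 in root P1.25 and of 11.01 in shoot P0 against 7.99 in shoot P1.25 (tissue difference -2.63; adjusted p = 0.000116). UF3GT and AT5MAT, which add a sugar and a malonyl group to anthocyanins, differed by -3.48 and -3.36, and CHIL, a chalcone isomerase-like protein, by -2.90. PAL2, at the entry of the phenylpropanoid pathway, rose by 1.35 in root and 1.09 in shoot, and its difference of 0.26 was not called (adjusted p = 0.586). Among 4 regulators of the pathway, MYB113 was called below 0, at -1.28 (adjusted p = 0.0897), a call that was lost in 12 of the 26 alternatives. LBD37 and LBD39, repressors of anthocyanin synthesis, fell in both tissues with no called difference.

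Carbon metabolism was divided. In the list of organic acid, glycolytic bypass and respiratory genes, 5 of 11 were called below 0 and 1 above 0. The count above 0 was 3 without the third P1.25 arrays and between 0 and 2 when single arrays were left out. PPCK2, a kinase that activates phosphoenolpyruvate carboxylase, had 7.43, 7.39 and 7.48 in root P0 against 7.05, 6.80 and 6.67 in root P1.25, and 8.26, 8.26 and 8.21 in shoot P0 against 4.04, 4.26 and 5.04 in shoot P1.25. The shoot thus lay below the root at P1.25 and above it at P0 (tissue difference -3.21 ± 0.31; adjusted p = 0.000211). PPCK1 differed by -2.85, the carboxylase gene PPC1 by -1.12, and NDB2 and NDB4, external NAD(P)H dehydrogenases of mitochondria, by -1.3 and -1.69. The alternative oxidase gene AOX1A rose by 1.91 in root, and rose in shoot as well, with no called difference of 0.10 (adjusted p = 0.802).

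In the list of sugar transport and starch genes, 3 of 12 were called above 0 and 5 below 0, the second count being 2 or 3 when any single P0 array or the second shoot P1.25 array was left out. The hexose transporter gene MSS1, also known as STP13, had 9.22, 9.36 and 9.37 in root P0 against 6.68, 6.68 and 7.13 in root P1.25, and 9.26, 9.24 and 9.37 in shoot P0 against 8.74, 8.77 and 8.35 in shoot P1.25. Starved root and shoot reached the same range, and the difference was 1.82 (adjusted p = 0.000703). CT-BMY, a chloroplast beta-amylase that degrades starch, rose by 1.51 in root and changed by -0.06 in shoot (difference 1.57). APL3, a subunit of the starch-synthetic ADP-glucose pyrophosphorylase, rose by 1.43 in root and 2.55 in shoot (difference -1.12). SWEET13, a sucrose efflux transporter gene, had the second lowest value of all named genes. Its values were 6.37, 6.10 and 6.10 in root P0 against 5.87, 5.97 and 5.69 in root P1.25, and 10.07, 10.29 and 10.26 in shoot P0 against 5.21, 4.78 and 5.51 in shoot P1.25 (tissue difference -4.69 ± 0.25; adjusted p = 1.89e-05). SWEET11 instead fell by 1.22 in root and changed by -0.13 in shoot (difference -1.10).

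Genes of photosynthesis fell more in shoot. All 9 measured genes of chlorophyll synthesis, 5 of them named by the platform, were called above 0, with a median tissue difference of 1.40, a median change of -0.06 in root and of -1.56 in shoot. CHLM, the methyltransferase of magnesium protoporphyrin, had 5.72, 5.69 and 5.76 in root P0 against 5.97, 5.96 and 6.0 in root P1.25, and 6.33, 6.24 and 6.42 in shoot P0 against 8.69, 8.33 and 7.91 in shoot P1.25. The shoot fell towards the root level, and the difference was 1.72 ± 0.24 (adjusted p = 0.00136). HEME1 and HEME2, uroporphyrinogen decarboxylases, differed by 1.28 and 1.49 and GUN5, a magnesium chelatase subunit, by 1.33. Among 22 genes of light harvesting and the photosystems, 9 were called above 0 and none below 0, and 21 of the 22 fell in shoot. The platform named 9 of the 22, and 3 of those were called above 0. LHB1B1, a light-harvesting chlorophyll-binding protein, had 4.02, 4.14 and 4.27 in root P0 against 6.65, 6.23 and 5.94 in root P1.25, and 6.69, 6.49 and 6.63 in shoot P0 against 11.75, 11.79 and 9.93 in shoot P1.25. It fell in both tissues and by more in shoot (difference 2.42; adjusted p = 0.0219). PSAN, a photosystem I subunit, fell in shoot by 2.42 with a change of -0.14 in root. Means of the list members in root P1.25 differed widely, with 2.25 for CAB2, 3.44 for PSAD-1 and 8.04 for LHCA2. The medians of these root arrays were 5.55 to 5.58. A transcript that is low in a tissue can fall little there, and the part of this limit in the tissue differences was not tested. The count in this list depended on single arrays. Without the third shoot P1.25 array 21 of the 22 genes were called above 0, without the third root P1.25 array 14, without the third root P0 array 7, and without any other single array between 3 and 5. In the Calvin cycle list 1 of 7 genes was called above 0, 6 of 7 without the third P1.25 arrays, and 0 without most other single arrays.

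Sinapate ester synthesis held a larger single value, as SNG1, which makes sinapoylmalate, had 4.13, 4.04 and 3.68 in shoot P0 against 8.86, 8.60 and 7.06 in shoot P1.25, and means of 2.78 in root P0 and 3.90 in root P1.25 (difference 3.09; adjusted p = 0.00543). In the same list the laccase genes IRX12 and LAC17, which polymerise lignin in the xylem, fell in root by 1.2 and 1.23 and were called below 0, at -1.68 and -1.65. These 2 of 9 genes became 5 without the third P1.25 arrays.

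Many genes of root-specific functions fell in root, and several of them rose in shoot. All 4 measured genes of the endodermal barrier were called below 0 (median -2.44), as were 4 of 5 genes of the thalianol and marneral clusters (median -2.0), 3 of 4 root hair genes (median -1.05) and 6 of 10 genes of root iron acquisition (median -2.11). The platform named no endodermal gene, 1 thalianol or marneral gene, 2 root hair genes and 5 iron genes. Of these, 1, 2 and 2 in the last 3 lists were called below 0. CASP1 (AT2G36100), which positions the Casparian strip, had 8.78, 8.85 and 8.84 in root P0 against 10.32, 10.12 and 10.04 in root P1.25, and 7.91, 7.92 and 7.87 in shoot P0 against 5.80, 6.41 and 6.72 in shoot P1.25. The root arrays fell and the shoot arrays rose without overlap, by which the distance between the tissues became smaller (tissue difference -2.93 ± 0.27; adjusted p = 0.000191). The Casparian strip peroxidase gene PER64 and CASP2 showed the same pair of calls, with differences of -2.82 and -2.06, whereas CASP4 fell in root by 1.29 and changed by -0.08 in shoot.

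In the thalianol cluster, whose enzymes make root triterpenes, CYP705A5 had 7.63, 7.55 and 7.74 in root P0 against 9.31, 9.10 and 8.31 in root P1.25, and 7.03, 6.82 and 6.86 in shoot P0 against 4.76, 4.67 and 5.87 in shoot P1.25 (difference -3.07; adjusted p = 0.00200). The marneral cluster gene CYP71A16 differed by -2.68 with a fall in root and a rise in shoot. RHD2, the NADPH oxidase of root hair tip growth, fell by 0.55 in root and rose by 1.02 in shoot (difference -1.57; adjusted p = 0.00295). The root hair list member RSH2 (AT1G12950) went the other way and rose in root, by 1.25 (difference 0.65; adjusted p = 0.239), and 1 root hair gene was called above 0 without the third P1.25 arrays. As roots and shoots were hybridised whole, fewer cells of a type and less RNA per cell cannot be told apart in these values. The 10 measured root markers, some of them genes named here, summed to between 627 and 674 in shoot P0, against 266 to 411 in shoot P1.25. Whether root tissue in the starved shoot samples had a part in the rises in shoot was not tested.

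Of the 10 root iron acquisition genes, 7 fell and 1 rose in root, and 3 rose in shoot. FRU, also known as FIT, the regulator of iron uptake, had 5.33, 5.69 and 5.48 in root P0 against 8.09, 8.14 and 6.91 in root P1.25, and 4.80, 4.68 and 4.84 in shoot P0 against 4.16, 4.62 and 4.81 in shoot P1.25. Only the root P1.25 arrays were high (tissue difference -2.46 ± 0.42; adjusted p = 0.00433). AT1G74770 fell by 3.22 in root and changed by 0.34 in shoot (difference -3.56; adjusted p = 0.000127), and IREG2, a vacuolar metal transporter of the root, fell by 1.3 in root. ABCG37, which exports phenolics to the rhizosphere, rose by 2.15 in shoot with a root change of 0.38. AT1G28680 was the member that rose in root, by 0.36. FRO2, the ferric chelate reductase of the root surface, had the lowest tissue difference of the list, -4.18, which was not called (adjusted p = 0.124), with 5.42 in the third root P1.25 array against 10.43 and 11.25 in the others. Without the third P1.25 arrays 9 of the 10 genes were called below 0. Of 6 ferritin and vacuolar iron transport genes, FER1, an iron storage protein, rose by 2.93 in root and 1.81 in shoot (difference 1.12; adjusted p = 0.0771), and AT1G21140, a vacuolar iron transporter-like protein, by 3.10 in root and 1.71 in shoot (difference 1.38; adjusted p = 0.00685). None of the 6 was called below 0, against 1 without the third P1.25 arrays.

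**Figure D3:**
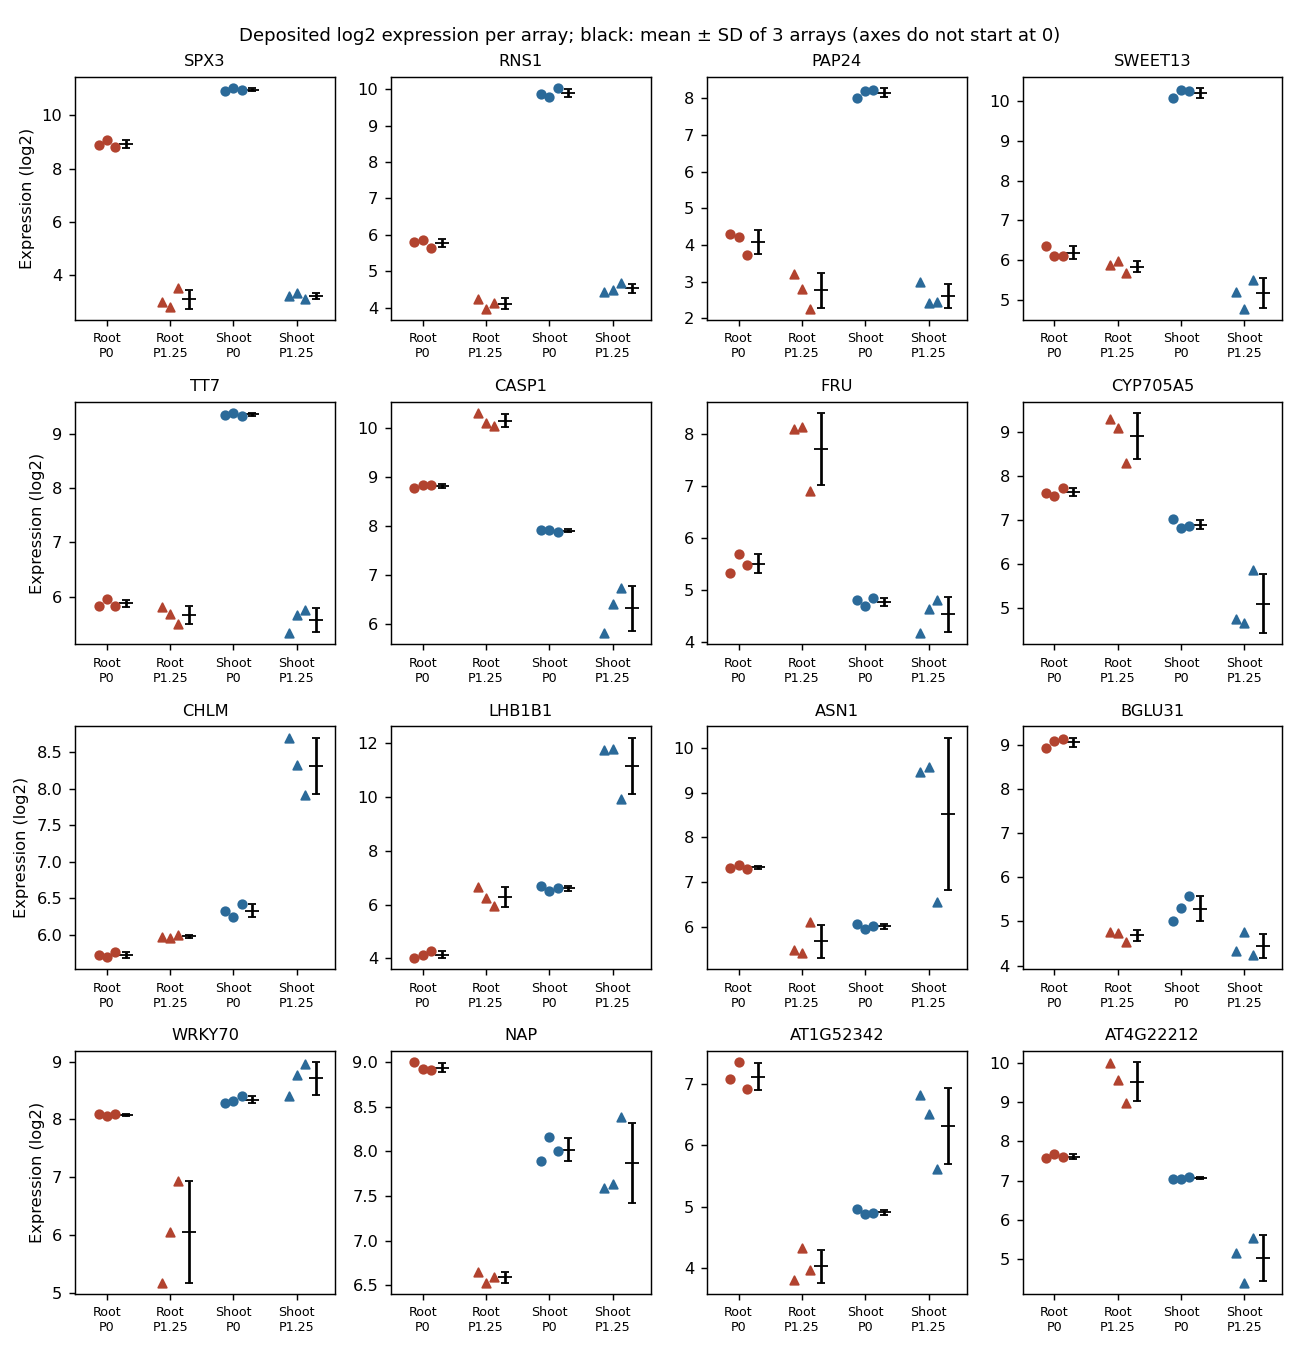
Deposited log2 expression of 16 genes in each array (points) by group (horizontal axis), root in red and shoot in blue, P0 as circles and P1.25 as triangles; black bars are mean ± SD of 3 arrays, and the vertical axes do not start at 0. SPX3, RNS1, PAP24, SWEET13 and TT7 are highest in shoot P0, CASP1, FRU, CYP705A5 and AT4G22212 in root P1.25, and CHLM and LHB1B1 in shoot P1.25.

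Several defence and senescence genes rose more in root. In the list of salicylate response and defence genes, 7 of 12 were called above 0 and none below 0, with a median change of 1.85 in root and 0.60 in shoot. One of the 12 was named by the platform. The number called was 4 without the first or the second root P0 array and 3 when all 18 arrays were fitted, and 1 gene was called below 0 without the third P1.25 arrays. WRKY70, a regulator between salicylate and jasmonate responses, had 8.10, 8.06 and 8.09 in root P0 against 5.17, 6.04 and 6.93 in root P1.25, and 8.29, 8.32 and 8.40 in shoot P0 against 8.40, 8.77 and 8.95 in shoot P1.25. The starved roots stood close to the shoots, and the control roots below them (tissue difference 2.41 ± 0.49; adjusted p = 0.00941). WRKY38 rose in root by 2.80 and SARD1, an activator of salicylate synthesis, by 2.59, with differences of 2.25 and 1.95. PR1, a salicylate marker gene, had a change of -0.88 in root and fell by 2.59 in shoot, with a difference of 1.71 that was not called (adjusted p = 0.180).

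Among 13 senescence and autophagy genes, 5 were called above 0 and 1 below 0, the second count being 2 without the third P1.25 arrays. The senescence factor gene NAP had 9.0, 8.92 and 8.91 in root P0 against 6.65, 6.53 and 6.59 in root P1.25, and 7.89, 8.16 and 8.01 in shoot P0 against 7.59, 7.63 and 8.39 in shoot P1.25. Root arrays at P0 were far above those at P1.25, and shoot arrays overlapped (difference 2.2 ± 0.27; adjusted p = 0.000736). NAC6, another senescence regulator, differed by 1.55, ATG8E by 1.28 and ATG8H by -0.85, the last 2 encoding proteins of the autophagosome membrane. ASN1, a dark-inducible asparagine synthetase, had 7.32, 7.38 and 7.29 in root P0 against 5.5, 5.43 and 6.11 in root P1.25, and 6.08, 5.95 and 6.02 in shoot P0 against 9.46, 9.57 and 6.57 in shoot P1.25. It rose in root and fell in shoot (difference 4.16 ± 0.89; adjusted p = 0.0125), with the third shoot P1.25 array far below its companions.

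Of 8 ethylene genes 3 were called above 0 and none below 0, against 4 above and 2 below 0 without the third P1.25 arrays. ACS7, which makes the ethylene precursor, had 8.48, 8.38 and 8.21 in root P0 against 5.12, 5.13 and 5.00 in root P1.25, and 7.99, 7.90 and 8.07 in shoot P0 against 6.38, 6.77 and 6.6 in shoot P1.25 (difference 1.87 ± 0.18; adjusted p = 0.000194). Both tissues rose and the root, the lower at P1.25, passed the shoot. RTE1 and ACS2 differed by 0.93 each, the second with an adjusted p of 0.0988 that was lost in 19 of the 26 alternatives. In the jasmonate list 3 of 10 genes were called above 0, with 1 to 4 when single arrays were left out, and 1 below 0, with 1 to 3 when single arrays were left out. Without the third P1.25 arrays 4 were called above and 4 below 0. The platform named 2 of the ethylene genes, 1 of them called above 0, and 3 of the jasmonate genes, 1 called above and 1 below 0. Of all genes named by the study, 24.7% were called above and 25.5% below 0. LOX3, a lipoxygenase of jasmonate synthesis, rose by 3.03 in root and 1.03 in shoot (difference 2.0; adjusted p = 0.00170), whereas THI2.1, a thionin, rose by 1.36 in shoot with a root change of 0.01 (difference -1.36).

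The list of nitrate transport and assimilation held values far apart. AT3G25790, placed in the nitrate list, had the lowest tissue difference of all named genes. Its values were 7.29, 7.36 and 7.47 in root P0 against 8.59, 8.40 and 7.19 in root P1.25, and 9.15, 9.06 and 8.89 in shoot P0 against 4.37, 4.59 and 5.04 in shoot P1.25, so that root arrays overlapped and shoot arrays did not (difference -5.05 ± 0.44; adjusted p = 0.000137). NRT1.8, a transporter that removes nitrate from xylem sap, rose by 3.83 in root and 1.93 in shoot (difference 1.91; adjusted p = 0.00383). The nitrite reductase gene NIR1 fell by 0.99 in root and 0.36 in shoot (difference -0.63). Over the whole list 2 of 10 genes were called above 0 and 3 below 0, among them ASN1 and AT3G25790. The platform named 4 of the 10, of which none was called above 0 and 2 were called below 0.

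In the nucleolar list the fall had the same direction in both tissues. Of 13 nucleolar genes of ribosome biogenesis, 12 fell in root and 12 in shoot, the median change was -0.89 in root and -0.64 in shoot, and none had a called tissue difference by limma, 4 of them having an unadjusted p under 0.05. The smallest adjusted p in this list belonged to the RNA helicase gene PRH75, at -0.40 (adjusted p = 0.120), and to the nucleolin gene NUC-L1, at -0.32 ± 0.14 (adjusted p = 0.157). Depending on the alternative, 0 to 4 of the 13 were called below 0, with 1 called without the third P1.25 arrays. In the list of DNA replication and cell division, 7 of 8 genes fell in shoot and 2 in root, and 1 had a called difference, CDKB2;2, a mitotic kinase, which rose in shoot by 1.26 (difference -1.13). Without the third shoot P1.25 array, 7 of the 8 genes were called above 0.

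**Figure D4:**
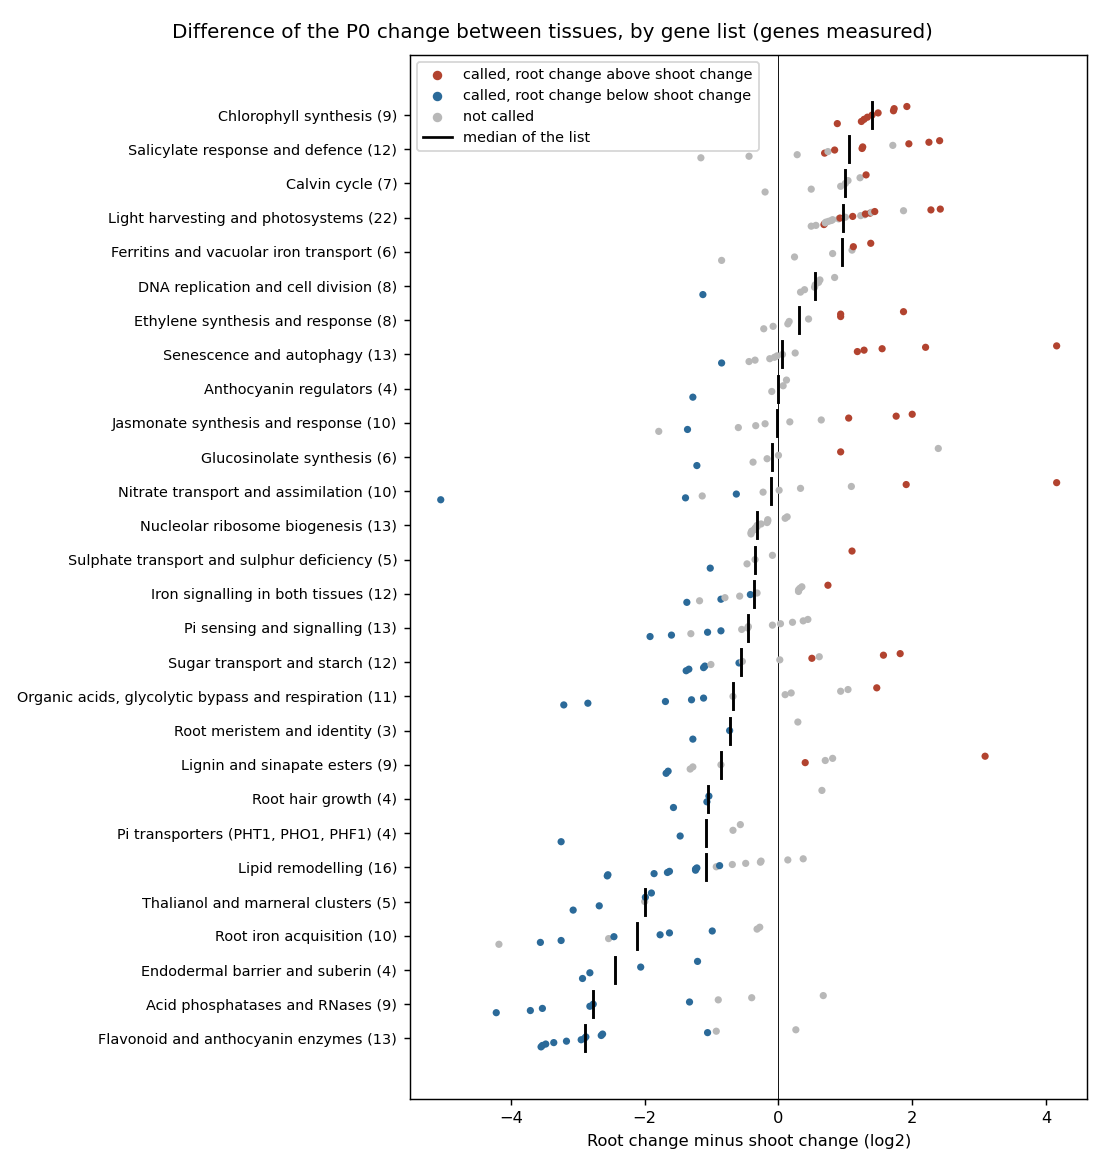
Tissue difference (root change minus shoot change, log2; horizontal axis) of each measured gene in 28 lists, with the number of measured genes in brackets; red and blue points were called above and below 0, grey points were not called, and black ticks are list medians. Medians run between -2.90 for flavonoid and anthocyanin enzymes and 1.40 for chlorophyll synthesis.

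Among the 10 named genes with the highest tissue differences, 6 rose strongly in root with little change in shoot. RLP38, a receptor-like protein gene, had 9.71, 9.38 and 9.58 in root P0 against 5.04, 5.41 and 6.07 in root P1.25, and 7.51, 7.68 and 7.64 in shoot P0 against 6.89, 7.24 and 8.93 in shoot P1.25 (difference 4.13 ± 0.63; adjusted p = 0.00245). BGLU31, a beta-glucosidase gene, had 8.92, 9.09 and 9.13 in root P0 against 4.75, 4.74 and 4.54 in root P1.25, and 5.00, 5.30 and 5.57 in shoot P0 against 4.34, 4.75 and 4.23 in shoot P1.25 (difference 3.52 ± 0.24; adjusted p = 6.12e-05). Both stood clear of overlap in root, and BGLU31 rose in shoot as well, by 0.85. AT4G17660, AT3G28510 (an AAA-type ATPase), AT5G52680 and AT1G59865 rose in root by 3.39, 3.77, 3.77 and 3.16, with shoot changes between -0.20 and 0.28 that were not called. At the other end, BOR5, a putative boron transporter gene, had 4.69, 4.91 and 4.53 in root P0 against 3.95, 3.71 and 4.2 in root P1.25, and between 9.99 and 10.12 in shoot P0 against 5.30, 5.30 and 5.38 in shoot P1.25 (difference -3.95 ± 0.20; adjusted p = 1.82e-05). AT1G09500, AT5G02580 and AT1G53610 rose in shoot by 4.39, 3.61 and 3.79 with no call in root. AT4G12545 belonged to the other pattern, falling in root by 4.50 with a shoot change of -0.18.

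Opposite calls in the 2 tissues were made for 779 transcripts, of which 254 (0.661% of all) rose in root and fell in shoot and 525 (1.37%) fell in root and rose in shoot. AT1G52342, of unknown function, had the highest tissue difference of all named genes. Its values were 7.08, 7.35 and 6.91 in root P0 against 3.81, 4.33 and 3.96 in root P1.25, and 4.96, 4.88 and 4.90 in shoot P0 against 6.81, 6.50 and 5.61 in shoot P1.25, so that the higher tissue at P1.25 was the lower one at P0 (difference 4.47 ± 0.38; adjusted p = 0.000116). AT5G10760, an aspartyl protease family gene, rose by 1.83 in root and fell by 1.42 in shoot, and PGL1, a 6-phosphogluconolactonase, rose by 1.6 in root and fell by 1.69 in shoot. In the reverse pattern, AT4G22212, annotated as a defensin-like protein, had 7.57, 7.67 and 7.60 in root P0 against 9.98, 9.56 and 8.98 in root P1.25, and 7.05, 7.05 and 7.09 in shoot P0 against 5.16, 4.40 and 5.53 in shoot P1.25 (difference -3.92 ± 0.41; adjusted p = 0.000341). AT3G28550 and AT1G23720, both proline-rich extensin-like genes, and AT1G33750, a terpenoid synthase, shared these calls, with differences of -3.76, -3.21 and -3.64.

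The direction of the tissue difference went with the tissue in which a transcript was high. This was read from the P20 arrays, which were not part of the contrast, with transcripts of identical values counted once. Of 3411 transcripts with a called difference above 0, 45.8% were more than 1 log2 unit higher in shoot than in root at P20 and 1.93% were as much higher in root. Of 3534 called below 0, 36.2% were higher in root at P20 and 3.48% higher in shoot. Without the third P20 arrays these shares were 47.8% and 2.61% for calls above 0, and 38.7% and 3.42% for calls below 0. Among the 25934 transcripts not called, 5.46% were higher in root and 6.29% higher in shoot. Read the other way, the median change of the 2760 transcripts that were higher in root at P20 was -0.35 in root and 0.41 in shoot, and that of the 3316 transcripts higher in shoot at P20 was -0.03 in root and -0.76 in shoot. The 26803 transcripts that differed by 1 or less at P20 held 1782 calls above 0 and 2133 below 0. In shoot, 1222 of the 2760 transcripts higher in root at P20 were called higher at P0 and 171 lower. In root, 666 of the 3316 higher in shoot at P20 were called higher at P0 and 460 lower. Over all transcripts, with copies, 16.8% were called higher and 22.5% lower in shoot, and 11.4% higher and 18.7% lower in root. As a transcript low in 1 tissue can fall little there, the level itself limits which falls can arise. The part of this limit was not tested.

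**Figure D5:**
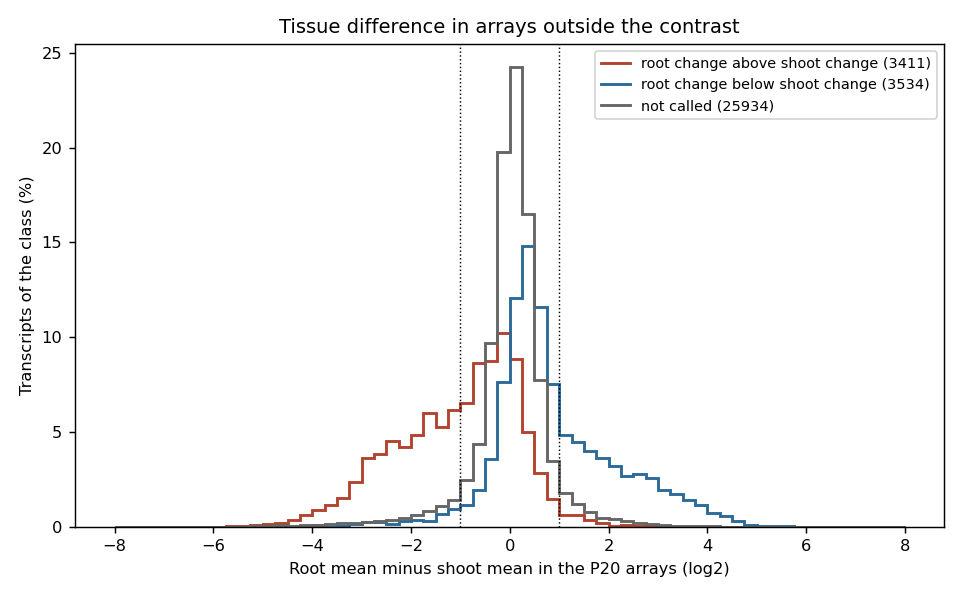
Share of transcripts (%, vertical axis) by root mean minus shoot mean at P20 (log2, horizontal axis; 3 arrays each) for transcripts called above 0 (red), below 0 (blue) and not called (grey), with numbers in brackets and dotted lines at -1 and 1. The red class extends to the left, with 45.8% below -1, and the blue class to the right, with 36.2% above 1.

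Several lists showed the same division. At P20, 21 of the 22 light harvesting genes and 8 of the 9 chlorophyll synthesis genes were more than 1 log2 unit higher in shoot, and 9 of 10 root iron acquisition genes and all measured genes of the endodermal, root hair and thalianol and marneral lists were as much higher in root. These lists were drawn up by leaf or root function, so their tissue at P20 is no separate support for the division. Other lists did not show it. In the sugar transport and starch list 10 of 12 genes were higher in shoot at P20, with 3 called above and 5 below 0, and in the organic acid list 5 of 11 were higher in shoot and 2 in root, with 1 called above and 5 below 0. The median root minus shoot value at P20 was between -0.40 and 0.22 in the 4 Pi starvation lists and the flavonoid list. The markers of both organs are themselves members of the lists above, so that their sums are not a separate measurement. The root markers are 4 endodermal genes (CASP1, CASP2, CASP4 and PER64), CYP705A5, EXPA7, EXPA18, UPB1, NRT2:1 and IRT1, and the shoot markers are 7 light harvesting and photosystem genes and 4 Calvin cycle genes. The 10 root markers summed to between 1057 and 1126 in root P0 against 2267 to 2965 in root P1.25, and to between 627 and 674 in shoot P0 against 266 to 411 in shoot P1.25, with 7 called lower in root and 6 called higher in shoot. The 11 shoot markers summed to between 615 and 646 in root P0 against 775 to 1136 in root P1.25, and to between 4292 and 4504 in shoot P0 against 8929 to 15755 in shoot P1.25. The sum of the root markers was thus higher in starved shoots, where 8 of the 10 had a higher mean than at P1.25. CASP4 and NRT2:1 changed there by -0.08 and -0.11. The sum of the shoot markers was not higher in starved roots, where 8 of the 11 had a lower mean. Only 10 of 26 genes listed as root markers and 11 of 22 listed as shoot markers were measured.

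Gene families were searched by symbol and synonym among genes named by the platform, of which 14742 carry a locus code and no symbol, so that 6 of 41 families reached 10 genes. Over all 16547 genes named by the platform, 9.78% were called above 0 and 10.6% below 0. No family was tested against these shares. Of 34 expansin and xyloglucan enzyme genes, 7 were called above 0 and 11 below 0. EXLA3, an expansin-like gene, rose by 3.28 in root and 0.67 in shoot (difference 2.61), and XTH19, a xyloglucan endotransglucosylase, rose by 0.77 in root and 3.16 in shoot (difference -2.39). Of 13 glutathione transferases 2 were called above and 5 below 0, with GSTF3 at 2.5 and GSTU26 at -2.78. Of 48 UDP-glycosyltransferases 7 and 6 were called above and below 0, of 26 cytochrome P450 genes 5 and 2, of 14 nitrate and peptide (NPF) transporters 2 and 5, and of 14 auxin-response genes 2 and 1. The 14 SWEET genes, examined after their values were seen, had 1 call above 0 and 5 below 0.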

How the data were processed

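RNA of roots and shoots was hybridised to Affymetrix AraGene 1.0 ST arrays. The authors computed gene-level log2 values by RMA in Partek Genomics Suite 6.6, which corrects background and equalises the distributions of all 18 arrays, and deposited these log2 values, which were used unchanged. The genome build behind the probe annotation is not given in the sources used here. Arrays carry no read depth, and 3 arrays per group limit the precision. Fold changes and p-values in the study's tables were not used.

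Group means of the 4 groups were fitted over 12 arrays with limma 3.58.1 in R 4.3.3 (8 residual and 2.3 prior degrees of freedom), and p-values of each contrast were adjusted by Benjamini-Hochberg over 38408 transcripts. A call is an adjusted p under 0.1 of any size. In simulated data of 32879 transcripts with 100 planted differences of each size, the fit recovered 38% of those of 1 and 88% of those of 2 on the log2 scale. Planted differences were far rarer there than calls in the real data. The adjustment depends on that share, so these recoveries do not carry over to the real data. The study's methods name a two-way ANOVA with a false discovery rate.

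Each gene is represented by its transcript of highest mean over the 12 arrays, among transcripts with 1 gene. Names came from the platform annotation updated through RefSeq, and otherwise from names in the study's tables. Of 594 listed genes, 257 had a named transcript. Genes named in the text are the 10 highest and 10 lowest among called tissue differences where P0 and P1.25 arrays did not overlap in at least 1 tissue, up to 5 called members of each list, the 6 largest differences of each opposite pattern and the largest of each family; further members are named to show values that were not called and were chosen after their values were seen. The comparison, the lists and the tests were chosen with earlier results of these data known.

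The main fit has no block. Alternatives were another variance estimate, array weights, all 18 arrays, leaving out arrays, a replicate block, other scalings, filters and thresholds. Wilson intervals at 95% for the shares by tissue at P20 cover counting error only.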

Additional observations from a re-analysis of the deposited data

Results flagged for a closer look

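The test of the difference between tissues flagged 7461 transcripts, and 779 of these had opposite calls in root and shoot. The 6 genes of highest tissue difference that rose in root and fell in shoot were AT1G52342 (4.47), ASN1 (4.16), AT1G58225 (4.03), AT2G25200 (3.76), PGL1 (3.29) and AT5G10760 (3.25). The 6 of lowest tissue difference that fell in root and rose in shoot were AT4G22212 (-3.92), AT3G28550 (-3.76), AT1G33750 (-3.64), AT1G07560 (-3.27), AT1G29025 (-3.26) and AT1G23720 (-3.21). AT1G58225 and AT2G25200 are of unknown function, and AT1G07560 is annotated as a leucine-rich repeat receptor kinase. In AT1G58225 the third shoot P1.25 array, at 5.00, lay above its companions at 3.73 and 3.65, and shoot P0 had 3.08, 2.88 and 3.32. Groups of 3 arrays were too small for a test of single outlying arrays.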

How the results depend on the processing

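No call changed direction under any of the 26 alternatives. Leaving out 1 array at a time gave between 5668 and 10051 called transcripts, 2795 to 4809 above 0 and 2873 to 5242 below 0, with the highest counts without the third shoot P1.25 array; calls at P0 ranged from 9091 to 13373 in root and from 12312 to 16219 in shoot, and opposite calls from 551 to 1242. Without the third P1.25 arrays of both tissues 5769 transcripts were called below 0 and 1537 had opposite calls, against 3813 and 779. Array weights gave 1408 opposite calls and an adjusted p under 0.05 gave 445. Restricted to transcripts with 1 gene, which tests fewer transcripts, 4554 were called, 2173 above and 2381 below 0, with 6002 calls in root, 7588 in shoot and 468 opposite. With a size above 1 required as well, 4035 were called, 2013 above and 2022 below 0, with 3558 calls in root, 5304 in shoot and 92 opposite, against 11533 and 15080 calls in root and shoot without it. The replicate block gave 6979 calls, 6558 of them called in the same direction without it. The replicate block within treatment, a fit that gives no separate calls per tissue, gave 6312. Same-numbered arrays correlated between -0.010 and 0.074 in their deviations from the group means over 12 pairs, and differently numbered arrays between -0.083 and 0.082. Over groups this small, such values cannot decide whether the array numbers pair the samples. The highest same-numbered value, 0.074, belonged to the third P1.25 arrays of root and shoot, which both stood apart from their groups. Centring on the array median gave 7477 calls and quantile normalization within a tissue 7461.

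Of 132 named genes with a call, 101 kept it under every alternative in which they were tested (26, or 25 for THI2.1 and PAP14) and 31 lost it under at least 1. List counts moved by more than 1.5 times in 195 of 1456 combinations of list, direction and alternative. The shares by tissue at P20 were 23.6% and 19.2% for a difference of 2; this alternative and the one without the third P20 arrays were chosen after seeing the data.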
